A study of Homo sapiens with 9 samples.

Results

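The SLC25 family of mitochondrial carriers was examined in VCaP cells, an established human prostate cancer line with the TMPRSS2-ERG fusion, in which siRNA lowered KMT2C, the gene of a methyltransferase acting on histone H3. Every gene of the deposited table whose symbol is SLC25A followed by a number was taken, which gave 48 of 60612 genes, and the choice used no measured value. The uncoupling proteins UCP1 to UCP3 and MTCH1 and MTCH2 belong to the same protein family under other symbols and were placed among the companion genes. The 3 groups were cells transfected for 4 days with a control siRNA, with siRNA 1 against KMT2C or with siRNA 2 against KMT2C. Each group had 3 libraries. All groups are the same line under transfection, so no untransfected cells enter a comparison, and the sequences of the siRNAs were not used here. Whether the libraries came from separate cultures is not stated, so the p-values cover the spread among these samples alone, and that spread may be technical.

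SLC25 proteins are small carriers of the inner mitochondrial membrane (a few sit in the outer membrane or in peroxisomes) that exchange nucleotides, carboxylates, amino acids, cofactors and ions between cytosol and matrix. They are encoded in the nucleus, made in the cytosol and inserted by a dedicated import route that runs through the TOM pore, the small TIM chaperones and the TIM22 complex. The best known members are the adenine nucleotide translocators, which export ATP and import ADP, the phosphate carrier, the citrate carrier that supplies acetyl groups for lipid synthesis, and the aspartate-glutamate carriers of the malate-aspartate shuttle. Luminal prostate cells are known for exporting citrate, and prostate cancers for a return to oxidative use of it.

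Library totals ran from 58462215 to 70726213 estimated counts. KMT2C was at 13.7, 12.1 and 12.9 FPKM (fragments per kilobase of transcript, scaled to library depth) in control cells, 1.54, 1.80 and 2.28 under siRNA 1, and 1.72, 1.64 and 1.73 under siRNA 2, so every siRNA library lay below every control library. All 10 luminal prostate markers passed the expression filter. Their summed level was 1003 to 1062 FPKM in the controls, 695 to 719 under siRNA 1 and 753 to 763 under siRNA 2. Of the markers of basal, fibroblast, leukocyte, endothelial and retinal cells, KRT14 (basal) and LUM (fibroblast) passed, and CD3E, CRX, RCVRN and GNAT1 had no counts in any library. The 5 fibroblast markers summed to 1.57 to 2.64 FPKM in the controls, 0.691 to 0.914 under siRNA 1 and 7.16 to 12.6 under siRNA 2. The higher sum under siRNA 2 was LUM alone (means of 1.24 and 9.74 FPKM in control and siRNA 2), and COL1A1, COL1A2, COL3A1 and DCN had means of at most 0.437 in control and 0.140 under siRNA 2, each lower than in control. The 3 basal markers summed to 2.37 to 2.63, 6.27 to 7.86 and 0.719 to 0.886. Transcripts of the mitochondrial genome took 10.2% to 11.1% of the counts in the controls, 8.25% to 9.61% under siRNA 1 and 11.95% to 12.2% under siRNA 2, and the part of these markers and transcripts in the carrier results was not tested. In bulk RNA, fewer cells with a transcript and less RNA per cell cannot be told apart.

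Of the 48 carrier genes, 37 reached 1 FPKM in at least 3 libraries and were tested, with edgeR's quasi-likelihood test fitted on 12830 genes and Benjamini-Hochberg adjustment at 0.05. Log2 fold changes below carry their standard error (SE). With siRNA 1, 11 of the 37 rose and 7 fell, or 29.7% and 18.9%, against 21.2% and 20.5% of all genes tested (41.7% in either direction). With siRNA 2, 13 rose and 9 fell, or 35.1% and 24.3%, against 24.4% and 24.9% of all genes (49.3% in either direction). With both siRNAs in the same direction 8 rose and 4 fell, 21.6% and 10.8%, against 13.2% and 12.6% of all genes. SLC25A23 and SLC25A33 moved in opposite directions with the siRNAs (416 genes of all tested, 3.24%). The median log2 fold change of the tested carriers was 0.13 under siRNA 1 and -0.01 under siRNA 2, beside 0.01 and 0.02 over all genes. These shares lie near or moderately above those of all genes and are given as a description. The contrasts of siRNA 1 and siRNA 2 share the control libraries.

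**Figure D1:**
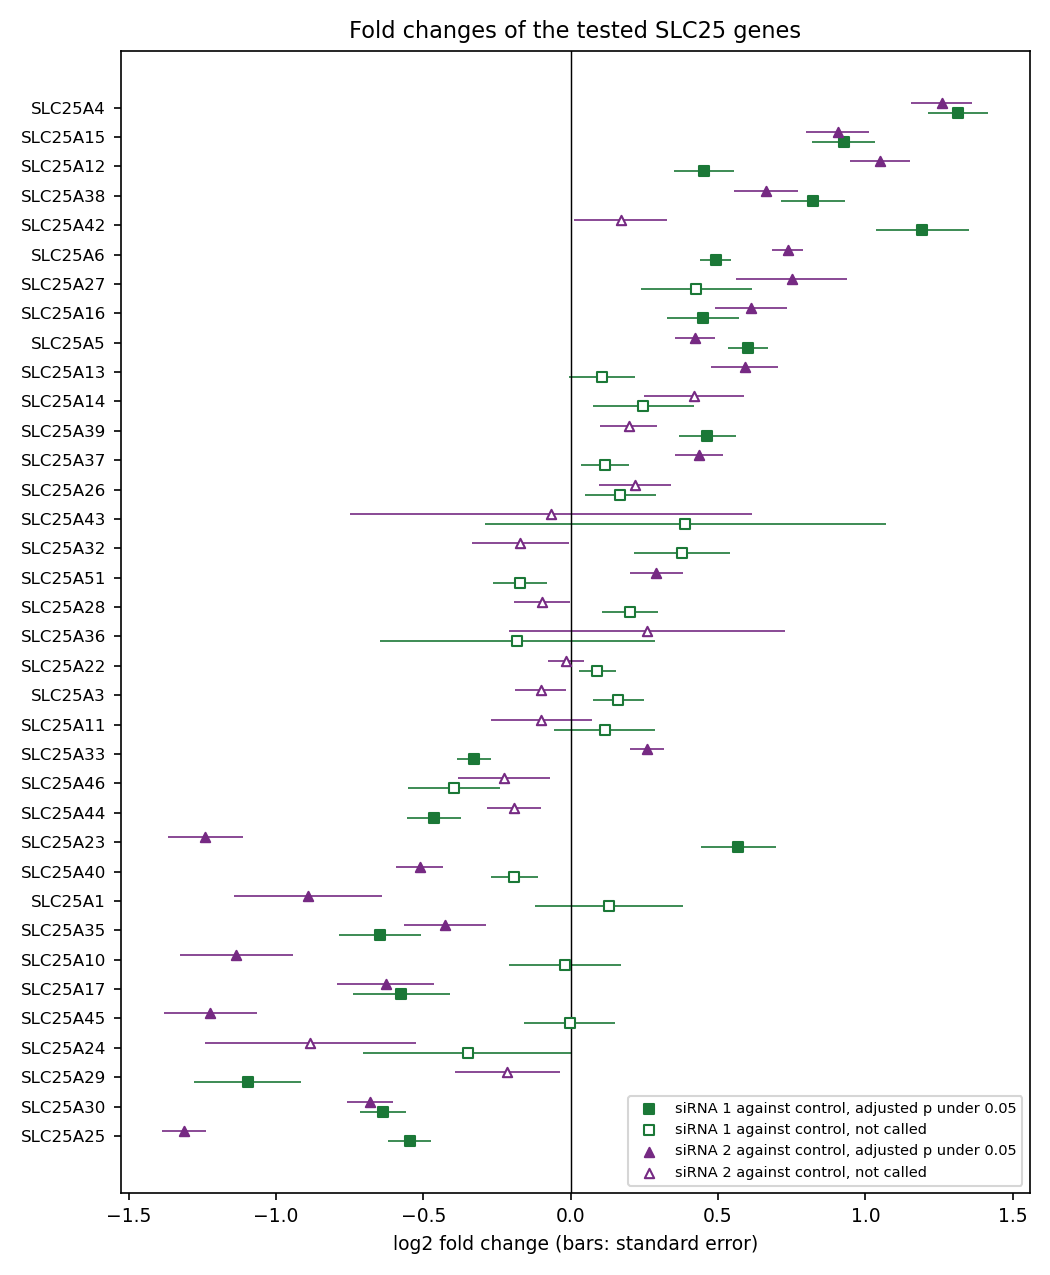
Log2 fold change against control siRNA (x axis) of 36 of the 37 tested SLC25 genes (rows, ordered by the mean of both values), with bars for the standard error, squares for siRNA 1 and triangles for siRNA 2, filled where the adjusted p was under 0.05. SLC25A4 stands at the top under both siRNAs, SLC25A25 at the bottom, and SLC25A23 has its filled symbols on opposite sides of 0.

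The adenine nucleotide translocators rose under both siRNAs. Gene positions here and below are those of the deposited table, on GRCh38 by their overlap with GENCODE. SLC25A6 (chromosome X, 1386152 to 1392113) was the most abundant carrier of the 48, with 547, 553 and 549 FPKM in the controls, 807, 802 and 750 under siRNA 1 and 943, 981 and 931 under siRNA 2. The 3 groups did not overlap, and siRNA 2 gave the highest level. Its log2 fold change was 0.49 ± 0.05 under siRNA 1 (adjusted p = 1.61e-04) and 0.74 ± 0.05 under siRNA 2 (adjusted p = 8.92e-06), and the difference between the siRNAs was itself called (-0.24 ± 0.05, adjusted p = 0.00599). SLC25A5 (chromosome X, 119468422 to 119471396), the isoform of proliferating cells, was next, at 109, 111 and 113 FPKM in the controls, 182, 161 and 169 under siRNA 1, and 161, 148 and 153 under siRNA 2. All siRNA libraries were above all control libraries, with log2 fold changes of 0.60 ± 0.07 and 0.42 ± 0.07. The difference between the siRNAs, 0.18 ± 0.07, was not called (adjusted p = 0.0627) and was called without siRNA 1 replicate 2 (0.23). SLC25A4 (chromosome 4, 185143266 to 185150382), the isoform of heart and muscle, was far less abundant and rose most, from 2.83, 3.07 and 3.12 FPKM to 8.48, 7.62 and 6.74 under siRNA 1 and 7.18, 7.78 and 7.51 under siRNA 2. It was 2.49-fold and 2.39-fold higher (log2 1.31 ± 0.10 and 1.26 ± 0.10, adjusted p = 3.64e-05 and 1.97e-05). SLC25A31, the germ-cell isoform, had no counts in any library. The isoforms are close in sequence and SLC25A5 and SLC25A6 have processed pseudogenes. How such reads were shared among them is unstated in the labels, and none of those pseudogenes passed the filter.

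The upstream sequences of these 3 genes are shown because the 3 isoforms rose together. They are the 250 bases before the RefSeq gene start on GRCh38.p14, 5′ to 3′ on the gene's strand, with capitals marking a GC box (GGGCGG, or CCGCCC on the other strand) or a CCAAT box (CCAAT, or ATTGG).
SLC25A4 at chr4:185143016-185143265, plus strand: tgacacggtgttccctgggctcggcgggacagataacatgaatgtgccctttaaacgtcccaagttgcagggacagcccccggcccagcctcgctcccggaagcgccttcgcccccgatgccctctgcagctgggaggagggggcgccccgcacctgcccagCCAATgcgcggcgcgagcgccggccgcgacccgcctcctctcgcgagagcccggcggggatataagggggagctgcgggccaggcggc
SLC25A5 at chrX:119468194-119468443, plus strand: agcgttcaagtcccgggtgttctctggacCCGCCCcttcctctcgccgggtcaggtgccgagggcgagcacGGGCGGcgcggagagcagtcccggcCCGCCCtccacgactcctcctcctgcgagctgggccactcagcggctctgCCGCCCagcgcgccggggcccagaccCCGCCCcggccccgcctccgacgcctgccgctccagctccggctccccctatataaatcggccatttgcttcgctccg
SLC25A6 at chrX:1392114-1392363, minus strand, in the pseudoautosomal region: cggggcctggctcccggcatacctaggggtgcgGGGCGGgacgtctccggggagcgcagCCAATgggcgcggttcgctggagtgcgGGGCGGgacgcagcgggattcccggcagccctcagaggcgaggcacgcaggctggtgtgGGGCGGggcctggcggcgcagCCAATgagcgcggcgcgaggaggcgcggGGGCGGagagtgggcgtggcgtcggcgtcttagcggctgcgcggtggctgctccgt
The stretches are rich in G and C (71.6%, 73.6% and 76.8%). SLC25A5 holds 5 GC boxes and no CCAAT box, SLC25A6 holds 4 GC boxes and 2 CCAAT boxes, and SLC25A4 holds 1 CCAAT box and no GC box. The NRF1 motif and the motifs CCGGAAGT (ETS), CACGTG (E-box) and TCAAGGTCA (ERR) were also searched on both strands. None lies in these letters or in the 300-base windows of these 3 genes, which add 50 bases after the start. Of all promoter windows of 300 bases, 1.36%, 4.44%, 7.43% and 0.359% hold these motifs. In windows of 300 bases (250 before and 50 after the start), a GC box was present in 44.6% of 27305 promoter windows, 1 per gene, and a CCAAT box in 35.7%. Among the 31 tested carriers with a window, 23 held a GC box (74.2%), 16 a CCAAT box (51.6%), 6 an E-box (19.4%) and 3 the ETS motif (9.68%). Of the 6 with a window that rose with both siRNAs, 4 held a GC box and 2 a CCAAT box. Of the 2 that fell with both, 1 held a GC box and 2 a CCAAT box. The NRF1 and ERR motifs lay in 0 of the 31. The 27305 windows were not limited to genes that passed the expression filter. RefSeq windows matched 40 of the 48 carriers, and the first listed window per gene was used. A match is a description of letters and not a binding site.

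Because SLC25A6 and SLC25A5 dominate the family, its summed level moved with them. The 48 genes summed to 1060, 1044 and 1089 FPKM in the controls, 1448, 1407 and 1359 under siRNA 1, and 1491, 1517 and 1460 under siRNA 2, with no overlap between siRNA and control libraries. The 3 translocators made up 62.3% ± 1.39 (SD, n = 3) of that sum in control cells, 68.7% ± 0.437 under siRNA 1 and 74.7% ± 0.221 under siRNA 2. The other 45 genes together gave 377 to 423 FPKM in the controls, 433 to 451 under siRNA 1 and 369 to 380 under siRNA 2. The siRNA 1 libraries were above the control range on this last measure, and the siRNA 2 libraries overlapped it.

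**Figure D2:**
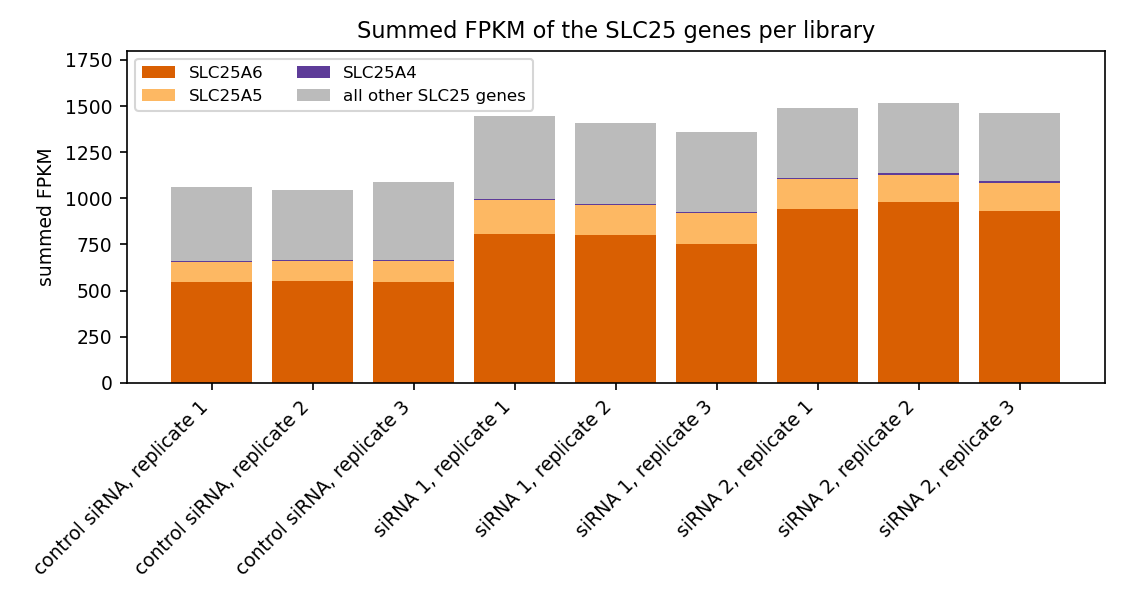
Summed FPKM (y axis, from 0) of the SLC25 genes in each of the 9 libraries (bars), split into SLC25A6, SLC25A5, SLC25A4 and all others. The control bars end between 1044 and 1089 and the siRNA bars between 1359 and 1517, with SLC25A6 the largest part of every bar.

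Of the 3 tested calcium-regulated ATP-Mg/phosphate carriers, which set the size of the matrix nucleotide pool, 1 rose and 1 fell under siRNA 1 and 2 fell under siRNA 2. SLC25A25 (chromosome 9, 128068201 to 128109245) fell under both siRNAs, from 13.8, 12.6 and 14.5 FPKM to 9.05, 9.71 and 9.72 under siRNA 1 and 5.95, 5.75 and 5.38 under siRNA 2. The 3 groups did not overlap, and the falls of 0.55 ± 0.07 and 1.31 ± 0.07 on the log2 scale (adjusted p = 5.40e-04 and 2.72e-06) differed from each other (0.77 ± 0.07, adjusted p = 8.40e-05). SLC25A25-AS1, its antisense gene, shares 665 exonic bases with it and rose, by 0.58 ± 0.09 and 1.01 ± 0.09, from 2.18, 1.93 and 2.03 FPKM to 2.84, 3.31 and 3.22 under siRNA 1 and 4.08, 4.72 and 4.09 under siRNA 2. The labels do not state whether counting used strand, so reads of the shared bases cannot be told apart. SLC25A23 (chromosome 19, 6436079 to 6459770) was at 12.4, 12.3 and 15.0 FPKM in the controls, 17.4, 22.4 and 20.2 under siRNA 1 and 5.86, 5.14 and 6.48 under siRNA 2. It lay above control under siRNA 1 (0.57 ± 0.13, adjusted p = 0.00719) and below it under siRNA 2 (-1.24 ± 0.13, adjusted p = 7.75e-05), 3.50-fold apart between the siRNAs (adjusted p = 1.80e-05). SLC25A24 varied within groups, with 3.32, 1.66 and 3.61 FPKM in the controls, 3.43, 1.59 and 1.80 under siRNA 1, and 1.35, 1.65 and 1.83 under siRNA 2, and passed with neither siRNA. Without control replicate 2 its siRNA 2 value of -0.88 became -1.15 and was called, and it was also called without siRNA 1 replicate 1 (-0.88) and with DESeq2 (-0.89). SLC25A41 had counts in 2 libraries, at most 16.

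Among the carriers linked to coenzyme A, SLC25A16 (chromosome 10, 68477998 to 68527523) rose under both siRNAs (0.45 ± 0.12 and 0.61 ± 0.12), from 2.07, 1.78 and 1.70 FPKM to 2.17, 2.99 and 2.58 under siRNA 1 and 2.85, 3.16 and 2.81 under siRNA 2. Replicate 1 of siRNA 1 lay close to the highest control. Its siRNA 1 call was lost without control replicate 2 (0.43), control replicate 3 (0.40) or siRNA 1 replicate 2 (0.34). SLC25A42 (chromosome 19, 19063994 to 19113030), a coenzyme A carrier, was at 0.773, 1.03 and 0.742 FPKM in the controls, 1.97, 2.05 and 1.91 under siRNA 1, and 0.863, 1.04 and 1.07 under siRNA 2. It rose under siRNA 1 (1.19 ± 0.16, adjusted p = 5.14e-04), had 0.17 ± 0.16 under siRNA 2, and differed between them (1.02 ± 0.16, adjusted p = 0.00113). SLC25A17 (chromosome 22, 40769630 to 40819399), the peroxisomal carrier, fell with both, from 9.39, 10.2 and 8.61 FPKM to 6.31, 6.42 and 6.57 under siRNA 1 and 8.22, 5.30 and 5.45 under siRNA 2. All siRNA libraries were below the controls, siRNA 2 replicate 1 narrowly. The change was -0.63 ± 0.16 under siRNA 2 (adjusted p = 0.0121). Its siRNA 1 change of -0.57 ± 0.16 was no longer called without control replicate 2 (-0.50), siRNA 1 replicate 1 (-0.57) or siRNA 1 replicate 2 (-0.57), and its difference between the siRNAs was called without siRNA 2 replicate 1 (0.29).

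The phosphate carrier SLC25A3, which supplies phosphate to the ATP synthase, was at 40.4, 47.0 and 46.0 FPKM in the controls, 54.2, 47.2 and 50.4 under siRNA 1, and 44.2, 41.5 and 43.7 under siRNA 2. Neither siRNA passed against control (0.16 ± 0.09 and -0.10 ± 0.09). The difference between them, 0.26 ± 0.09, was called at adjusted p = 0.0384. That call was lost without siRNA 1 replicate 1 (0.20) or 3 (0.27), without siRNA 2 replicate 1 (0.28), 2 (0.23) or 3 (0.28), with upper-quartile scaling (0.22) and with the replicate number as a block (0.26).

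Of the 3 tested carboxylate carriers, SLC25A1 and SLC25A10 fell under siRNA 2 and differed between the siRNAs, and SLC25A11 was called in no comparison. The citrate carrier SLC25A1 (chromosome 22, 19175581 to 19178736) was at 54.0, 38.2 and 76.5 FPKM in the controls, 64.4, 62.7 and 60.9 under siRNA 1, and 41.0, 26.8 and 26.7 under siRNA 2. The siRNA 2 libraries overlapped the uneven control libraries and lay below all siRNA 1 libraries. It fell by 0.89 ± 0.25 under siRNA 2 (adjusted p = 0.0176), a call lost without control replicate 3 (-0.59), siRNA 2 replicate 2 (-0.78) or siRNA 2 replicate 3 (-0.79), and the siRNAs differed by 1.02 ± 0.25 (adjusted p = 0.0124). The dicarboxylate carrier SLC25A10 (chromosome 17, 81712236 to 81721016), which exchanges malate or succinate for phosphate, was at 43.3, 29.9 and 39.0 FPKM in the controls, 44.5, 28.9 and 39.0 under siRNA 1, and 16.5, 20.8 and 15.8 under siRNA 2. It had -0.02 ± 0.19 under siRNA 1 and fell by 1.13 ± 0.19 under siRNA 2 (adjusted p = 0.00130), and differed between the siRNAs (1.11 ± 0.19, adjusted p = 0.00203). A protein-coding gene annotated on the same strand, AC139530.2, shares 46.6% of the exonic bases of SLC25A10. The oxoglutarate carrier SLC25A11 of the malate-aspartate shuttle did not pass (0.12 ± 0.17 and -0.10 ± 0.17, and 0.22 ± 0.17 between the siRNAs, adjusted p = 0.359). The oxodicarboxylate carrier SLC25A21 was below the filter, at means of 0.199, 0.534 and 0.588 FPKM in control, siRNA 1 and siRNA 2. In the fit without the filter it was called under both siRNAs (1.41 ± 0.32, adjusted p = 0.0141, and 1.48 ± 0.32, adjusted p = 0.00809), and SLC25A21-AS1 on the other strand shares 15.8% of its exonic bases.

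Both aspartate-glutamate carriers were higher under siRNA 2. SLC25A12 (chromosome 2, 171783405 to 171999859) was at 1.92, 1.92 and 2.15 FPKM in the controls, 2.39, 2.96 and 3.00 under siRNA 1 and 4.20, 4.37 and 4.33 under siRNA 2, with no overlap among the groups. It rose by 0.45 ± 0.10 (adjusted p = 0.00757) and 1.05 ± 0.10 (adjusted p = 5.46e-05), and the siRNAs differed (-0.60 ± 0.10, adjusted p = 0.00191). SLC25A13, the more abundant of the pair, was at 22.0, 23.6 and 22.0 FPKM in the controls, 22.4, 24.4 and 27.4 under siRNA 1 and 34.0, 41.3 and 30.7 under siRNA 2. It rose under siRNA 2 (0.59 ± 0.11, adjusted p = 0.00253), had 0.11 ± 0.11 under siRNA 1 and differed between them (-0.48 ± 0.11, adjusted p = 0.00946).

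Other amino acid carriers moved in both directions. The ornithine carrier SLC25A15 (chromosome 13, 40789412 to 40812460) rose alike with each siRNA, from 3.17, 3.17 and 2.49 FPKM to 5.17, 5.90 and 6.03 under siRNA 1 and 5.73, 5.80 and 5.68 under siRNA 2 (0.93 ± 0.11 and 0.91 ± 0.11, adjusted p = 2.42e-04 and 1.56e-04). SLC25A38 (chromosome 3, 39383370 to 39397351), the glycine carrier needed for heme synthesis in red cell precursors, rose from 12.6, 12.7 and 10.8 FPKM to 21.7, 20.6 and 22.8 under siRNA 1 and 21.9, 20.7 and 16.9 under siRNA 2 (0.82 ± 0.11 and 0.66 ± 0.11). For neither gene did any siRNA library overlap the control libraries. The basic amino acid carrier SLC25A29 (chromosome 14, 100291116 to 100306547) was at 9.26, 7.21 and 10.8 FPKM in the controls, 4.50, 5.17 and 3.31 under siRNA 1, and 7.80, 8.43 and 8.17 under siRNA 2. It fell by 1.10 ± 0.18 under siRNA 1 (adjusted p = 0.00160), had -0.21 ± 0.18 under siRNA 2 and differed between them (-0.88 ± 0.18, adjusted p = 0.00509). The branched-chain amino acid carrier SLC25A44 fell under siRNA 1 (-0.46 ± 0.09), with -0.19 ± 0.09 for siRNA 2. The latter was called without control replicate 1 (-0.28). The glutamate carrier SLC25A22, at 9.64 FPKM in control cells, passed with neither (0.09 ± 0.06 and -0.01 ± 0.06). SLC25A20, the carnitine-acylcarnitine carrier of fatty acid oxidation, reached means of 0.493, 0.585 and 0.970 FPKM and was not tested, and SLC25A18 (0.252 FPKM in control cells; -1.20 ± 0.29 under siRNA 2 without the filter, adjusted p = 0.0162), SLC25A48 (0.0846) and SLC25A2 (counts in 4 libraries, at most 8) were lower still.

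**Figure D3:**
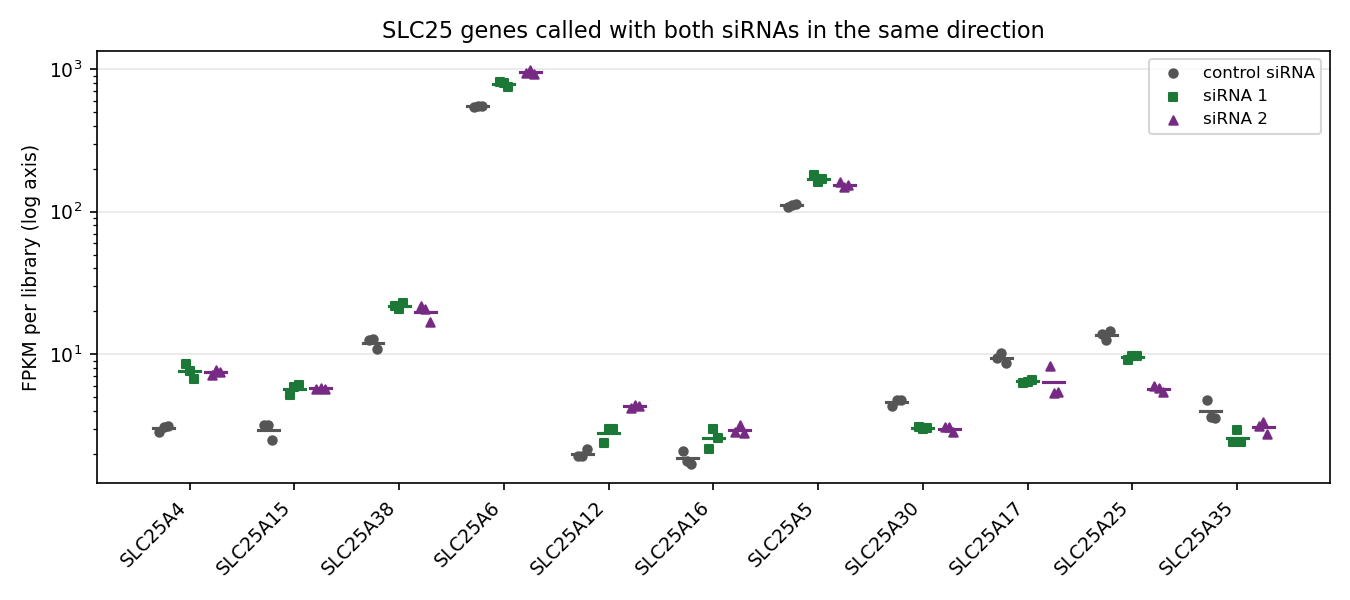
FPKM (log axis) of 11 of the 12 SLC25 genes called under both siRNAs in the same direction, with 1 point per library and a line at each group mean. For SLC25A4 the control points lie between 2.83 and 3.12 and the siRNA points between 6.74 and 8.48, while for SLC25A25, on the right with the genes that fell, the siRNA 2 points lie between 5.38 and 5.95.

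Among the cofactor and nucleotide carriers, the pyrimidine nucleotide carrier SLC25A33 (chromosome 1, 9539465 to 9585173) moved in opposite directions with little spread. It was at 25.4, 25.8 and 27.3 FPKM in the controls, 21.7, 21.5 and 20.5 under siRNA 1, and 32.8, 32.7 and 32.3 under siRNA 2, so the groups were separate. The log2 fold changes were -0.33 ± 0.06 (adjusted p = 0.00204) and 0.26 ± 0.06 (adjusted p = 0.00524), and the difference was -0.59 ± 0.06 (adjusted p = 8.98e-05). Its relative SLC25A36 passed with neither, and its libraries ranged from 3.52 to 10.8 FPKM within the control group and from 5.47 to 13.6 under siRNA 2. The NAD carrier SLC25A51 rose under siRNA 2 (0.29 ± 0.09, adjusted p = 0.0262), with -0.17 ± 0.09 for siRNA 1. The siRNA 2 call was lost without control replicate 1 (0.23), control replicate 2 (0.28), siRNA 2 replicate 1 (0.26) or siRNA 2 replicate 3 (0.29), and without the expression filter (0.26). The folate carrier SLC25A32 had 0.38 ± 0.16 and -0.17 ± 0.16, and AC012213.5 shares 69.7% of its exonic bases. Its siRNA 1 value was called without control replicate 3 (0.52) or siRNA 2 replicate 1 (0.38). The S-adenosylmethionine carrier SLC25A26 had 0.17 ± 0.12 and 0.22 ± 0.12, neither called. SLC25A52, the paralog of SLC25A51, stayed below the filter, with at most 31 counts in a library.

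Of the 4 carriers of iron and glutathione, 1 rose under siRNA 1, and 1 rose and 1 fell under siRNA 2. SLC25A39, a mitochondrial glutathione carrier, rose under siRNA 1 from 40.8, 39.5 and 36.3 FPKM to 56.0, 55.4 and 52.0 (0.46 ± 0.10, adjusted p = 0.00522). With siRNA 2 it was at 45.9, 40.3 and 52.5 (0.20 ± 0.10), overlapping control. That value was called without siRNA 2 replicate 2 (0.29) and with upper-quartile scaling (0.29), and the difference between the siRNAs, 0.27 ± 0.10 (adjusted p = 0.0573), was not called but became so without siRNA 2 replicate 3 (0.37) and with DESeq2 (0.26). Its paralog SLC25A40 fell under siRNA 2 (-0.51 ± 0.08, adjusted p = 8.35e-04), with -0.19 ± 0.08 for siRNA 1, from a mean of 8.03 FPKM to 5.85, and the siRNAs differed (0.32 ± 0.08, adjusted p = 0.0127). Of the mitoferrins, which bring iron into the matrix, SLC25A37 rose under siRNA 2 (0.43 ± 0.08, adjusted p = 0.00229), with 0.12 ± 0.08 for siRNA 1. Its difference between the siRNAs (-0.32 ± 0.08, adjusted p = 0.0146) was lost without the filter (-0.27) and without siRNA 2 replicate 2 (-0.26). SLC25A28 passed with neither siRNA against control (0.20 ± 0.09 and -0.10 ± 0.09). Its difference between them (0.30 ± 0.09, adjusted p = 0.0344) was lost at a minimum of 5 FPKM (0.26), with upper-quartile scaling (0.25) and without siRNA 1 replicate 1 (0.27) or 2 (0.29) or siRNA 2 replicate 2 (0.32) or 3 (0.23).

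Among the relatives of the uncoupling proteins, SLC25A30 (chromosome 13, 45393316 to 45418380) fell with both, from 4.34, 4.75 and 4.77 FPKM to 3.06, 2.99 and 3.02 under siRNA 1 and 3.08, 3.07 and 2.84 under siRNA 2 (-0.64 ± 0.08 and -0.68 ± 0.08, adjusted p = 3.45e-04 and 1.40e-04; difference 0.04 ± 0.08). No siRNA library overlapped the controls. SLC25A27 rose under siRNA 2 (0.75 ± 0.19, adjusted p = 0.0103), with 0.43 ± 0.19 for siRNA 1. It passed the filter in 4 libraries, 3 of them of siRNA 2. SLC25A14 passed with neither (0.25 ± 0.17 and 0.42 ± 0.17). Its siRNA 2 value was called without siRNA 1 replicate 2 (0.42), with upper-quartile scaling (0.52) and with limma on log2(FPKM + 1) (0.31) or log2(FPKM + 0.1) (0.45).

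Carriers with an unassigned or other role completed the family. SLC25A35 (chromosome 17, 8287763 to 8295343) fell under both siRNAs, from 4.75, 3.64 and 3.55 FPKM to 2.40, 2.93 and 2.42 under siRNA 1 and 3.13, 3.36 and 2.74 under siRNA 2 (-0.65 ± 0.14 and -0.43 ± 0.14). Its siRNA 2 call was lost without control replicate 1 (-0.30), siRNA 2 replicate 1 (-0.44) or siRNA 2 replicate 3 (-0.35), with upper-quartile scaling (-0.33) and with limma (-0.28 with a pseudocount of 1, -0.36 with 0.1), and RANGRF on the other strand shares 33.2% of its exonic bases. SLC25A45 (chromosome 11, 65375192 to 65382671) was at 2.17, 1.96 and 2.15 FPKM in the controls, 2.45, 1.92 and 1.99 under siRNA 1 and 1.06, 0.985 and 0.733 under siRNA 2. It fell by 1.22 ± 0.16 under siRNA 2 (adjusted p = 2.73e-04), had -0.00 ± 0.15 under siRNA 1, and differed between the siRNAs (1.22 ± 0.16, adjusted p = 4.28e-04). SLC25A46, an outer membrane protein linked to mitochondrial fission, had -0.40 ± 0.16 and -0.23 ± 0.16, neither called. Its siRNA 1 value was called without siRNA 1 replicate 1 (-0.50), without siRNA 2 replicate 2 or 3 (-0.40 each) and with DESeq2 (-0.41), and its siRNA 2 value without siRNA 2 replicate 3 (-0.41). SLC25A43 had 1 high library in each group: 2.27, 5.49 and 1.85 FPKM in control, 2.56, 8.51 and 1.82 under siRNA 1, and 2.07, 1.94 and 5.53 under siRNA 2. SLC25A34 and SLC25A53 had means under 0.5 FPKM in every group. Without the filter SLC25A53 was called between the siRNAs (-1.07 ± 0.29, adjusted p = 0.0360). SLC25A47 had counts in 3 libraries, at most 11.

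The comparison of siRNA 1 against siRNA 2 tests whether the siRNAs differ in effect. It called 10 carriers higher and 8 lower under siRNA 1, 27.0% and 21.6% of the 37, against 20.6% and 18.9% of all genes tested. By size the first 8 were SLC25A23, SLC25A45, SLC25A10, SLC25A42, SLC25A1, SLC25A29, SLC25A25 and SLC25A12. Of these, SLC25A25 and SLC25A12 were called under both siRNAs in the same direction, at different sizes.

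**Figure D4:**
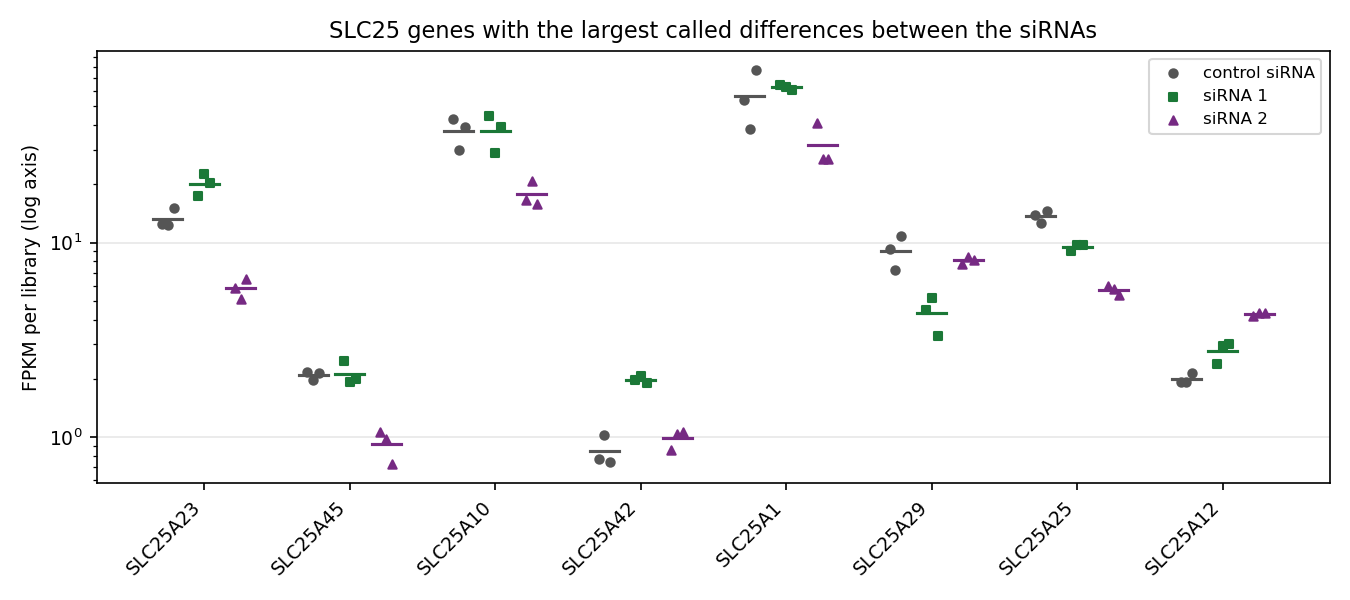
FPKM (log axis) of the 8 SLC25 genes with the largest called differences between siRNA 1 and siRNA 2, with 1 point per library and a line at each group mean. SLC25A23 has siRNA 1 points at 17.4 to 22.4 and siRNA 2 points at 5.14 to 6.48, on either side of control.

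Genes that work beside the carriers were taken from 9 lists by role, 118 genes of which 102 were tested. Of the 102, 25 rose and 10 fell with both siRNAs, beside 13.2% and 12.6% of all genes tested. The median log2 fold change of the 102 genes was 0.09 under siRNA 1 and 0.10 under siRNA 2. The import route had 8 rises among 13 genes under siRNA 1 and 6 under siRNA 2, all 6 also called under siRNA 1, and the medians were 0.27 and 0.10. Of all genes tested, 21.2% rose under siRNA 1, 24.4% under siRNA 2 and 13.2% under both. No import gene fell by edgeR. At an unadjusted p under 0.05 the count was 1 under siRNA 1 and 0 under siRNA 2, and DESeq2 called 1 and 0 and limma on log2(FPKM + 1) 0 and 0. The lists of one-carbon enzymes, iron-sulfur and heme genes and regulators also had 0 falls by edgeR under siRNA 1. Under siRNA 2 they had 1, 3 and 1. TOMM22, the central receptor of the TOM pore, was at 10.4, 10.2 and 11.6 FPKM in the controls, 33.5, 26.6 and 29.5 under siRNA 1 and 35.9, 36.0 and 34.2 under siRNA 2, all far above control (1.46 ± 0.10 and 1.67 ± 0.10). TIMM8B rose by 0.80 and 0.54 and the receptor TOMM20 by 0.54 and 0.49. The TIM22 channel gene TIMM22 (-0.16 and 0.02) and the chaperones TIMM9 (0.17 and 0.02) and TIMM10 (-0.10 and -0.11), which bind carriers in transit, were not called.

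Of 24 tested other mitochondrial transporters 3 rose and 4 fell under both siRNAs. The medians of the whole list were -0.02 under siRNA 1 and -0.10 under siRNA 2. Beside the counts of this and the following lists, 13.2% of all genes tested rose and 12.6% fell with both siRNAs. The lists are short, and their counts are given as a description. UCP2, the uncoupling protein, fell by 1.61 ± 0.20 and 2.06 ± 0.21 from a mean of 2.72 FPKM, and SLC8B1, the sodium-calcium exchanger, by 0.74 and 0.96, while LETM1, an ion exchanger gene, rose by 0.49 and 0.63. UCP2 and SLC8B1 passed the filter through the control libraries. Their siRNA 1 and siRNA 2 means were 0.897 and 0.667 FPKM for UCP2 and 0.912 and 0.803 for SLC8B1, under the 1 FPKM of the filter. MTCH2 rose by 0.36 and 0.42, and MTCH1 had 0.07 and, called, -0.17. The partner enzymes moved unevenly. In the shuttle and citrate list 3 of 11 rose and 1 fell: ME1 (malic enzyme) rose by 2.02 and 1.16 and CS (citrate synthase) by 0.58 and 0.66, while IDH2, the matrix isocitrate dehydrogenase, fell by 0.64 and 1.61. ME1 passed the filter through the siRNA 1 libraries alone, with a mean of 1.59 FPKM there and 0.383 in control. Its siRNA 2 libraries reached at most 0.976 FPKM, so both rises started below the 1 FPKM of the filter. In fatty acid entry 2 of 8 rose and 3 fell, with ACADVL higher by 0.74 and 0.69, CPT1B by 0.52 and 0.71 and CPT1A, which makes acylcarnitine, lower by 0.47 and 0.52. Of 9 ornithine, proline and glutamate enzymes 2 rose and 1 fell: GLUD1, glutamate dehydrogenase, fell by 0.87 and 0.99 from a mean of 184 FPKM, and ALDH18A1, which makes proline and ornithine precursors, rose by 0.66 and 0.69. Of 13 iron-sulfur and heme genes 3 rose with both, among them ISCA1 (0.80 and 0.84) and the ferrochelatase gene FECH (0.65 and 0.91). Among 7 branched-chain amino acid enzymes 3 rose and 1 fell, with BCKDHA at 0.71 and 0.65, BCKDHB at 0.37 and 0.35 and the phosphatase PPM1K at -0.68 and -1.65. Of 8 folate enzymes, MTHFD1 was called with both (0.48 and 0.21), and of 9 regulators PPRC1 (0.53 and 0.56) and TFB2M (0.45 and 0.47) rose with both. Taken singly, siRNA 1 gave 2 rises and 0 falls among the 9 regulators, and siRNA 2 gave 3 rises and 1 fall. Over all genes tested, 21.2% rose and 20.5% fell under siRNA 1, and 24.4% rose and 24.9% fell under siRNA 2.

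**Figure D5:**
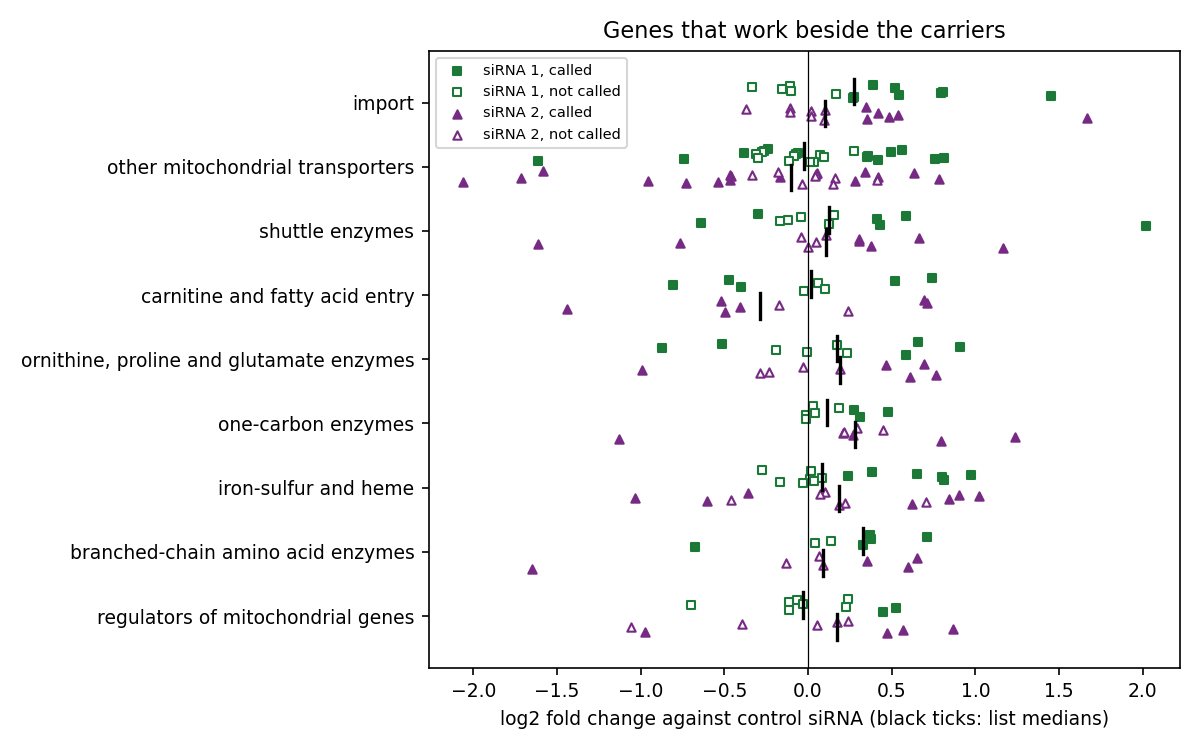
Log2 fold change against control siRNA (x axis) of 102 tested companion genes in 9 lists (rows), with squares for siRNA 1, triangles for siRNA 2, filled where called, and black ticks at the list medians. The import list has its called genes to the right of 0, with TOMM22 at 1.46 and 1.67, while most other lists have called genes on either side.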

How the data were processed

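RNA sequencing libraries of VCaP cells (3 groups of 3) came as 1 table of 60612 genes. Its FPKM columns were calculated by the authors, per the file headers, with genes without counts listed at 0.0001. Its other columns hold estimated counts (expected counts) per gene, deposited by the authors as whole numbers. They are taken as estimates since low values pile up at 4 and 8 (11286 and 5914 values, against 4677 at 3, 2524 at 5 and 3217 at 7). About 4 counts thus seem to stand for 1 fragment, although 6621 values were at 1 and 5430 at 2. Rounding changed no value. Bowtie 0.12.2 and 2 genome builds, hg38 and mm8, appear in the submitters' processing notes, which assign them no step; the counting tool is not given in the sources used here. All 48 carriers overlap the gene of the same identifier in GENCODE release 29 (GRCh38), 13 with the same start and end.

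From these, genes reaching 1 FPKM in 3 or more libraries (12830) were fitted with edgeR 4.0.16 (TMM scaling, quasi-likelihood F test, 2-sided, 1 mean per group over 9 libraries, R 4.3.3), adjusted over all genes tested at 0.05. SE is the log2 fold change over the square root of F. The steps were tested on simulated data. Alternatives were DESeq2 1.42.0, upper-quartile scaling, no filter, a minimum of 5 FPKM, limma 3.58.1 on log2(FPKM + 1) and log2(FPKM + 0.1), counts divided by 4, the replicate number as a block, and each library left out. Members were taken by symbol and companion lists by role, with earlier results on other gene lists of these data known. Per-library values were to be given for members called with both siRNAs, in opposite directions, or among the 8 largest differences between siRNAs, and for the 3 most abundant; companions were named up to 3 per list by the smaller change, and other genes and values, among them SLC25A25-AS1, TIMM22, TIMM9, TIMM10 and MYC, were chosen after their values were seen. Some genes these rules would name are not reported here, while counts, medians and sums over the lists and the family include them.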

Additional observations from a re-analysis of the deposited data

Results flagged for a closer look

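In edgeR's test of siRNA 1 against siRNA 2, 39.5% of all genes tested reached an adjusted p under 0.05 (20.6% higher, 18.9% lower). The effects of the siRNAs differed, by the same test, in 18 of the 37 tested carriers (27.0% higher and 21.6% lower under siRNA 1). The log2 difference, siRNA 1 minus siRNA 2, was above 0 for 10 of them: SLC25A23 (1.81), SLC25A45 (1.22), SLC25A10 (1.11), SLC25A42 (1.02), SLC25A1 (1.02), SLC25A25 (0.77), SLC25A32 (0.55), SLC25A40 (0.32), SLC25A28 (0.30), SLC25A3 (0.26). It was below 0 for 8: SLC25A29 (-0.88), SLC25A12 (-0.60), SLC25A33 (-0.59), SLC25A13 (-0.48), SLC25A51 (-0.46), SLC25A37 (-0.32), SLC25A44 (-0.27), SLC25A6 (-0.24). SLC25A23 and SLC25A33 were called in opposite directions against control. For SLC25A3, SLC25A28, SLC25A32 and SLC25A44 the call was lost without siRNA 1 replicate 1 (0.20, 0.27, 0.57 and -0.22). SLC25A28 also lost it without siRNA 1 replicate 2 (0.29), siRNA 2 replicate 2 (0.32) or siRNA 2 replicate 3 (0.23). It was also lost for SLC25A28 at a minimum of 5 FPKM (0.26) and with upper-quartile scaling (0.25), and for SLC25A3 with upper-quartile scaling (0.22) and the replicate block (0.26). For SLC25A37 it was lost without siRNA 2 replicate 2 (-0.26) and without the filter (-0.27), and for SLC25A44 without the filter (-0.23). SLC25A32 lost it without siRNA 1 replicate 2 (0.54) or 3 (0.53) or siRNA 2 replicate 1 (0.39). SLC25A44 lost it without control replicate 2 (-0.27) and without any other single siRNA library (-0.30 to -0.26).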

How the results depend on the processing

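Over 852 values of tested carriers under settings other than leaving out a library, 835 kept their side of the threshold, 10 lost a call and 7 gained one; with 1 library left out, 948 of 999 kept it, 37 lost a call and 14 gained one. None of these called values changed sign. With a minimum of 5 FPKM, which left 25 carriers, 7 were called higher with siRNA 1, and 5 rose and 2 fell with both siRNAs, since fewer genes were tested. With DESeq2, with counts divided by 4 and with the replicate block, the same 8 rises and 4 falls with both siRNAs were called. Leaving out 1 library gave 10 to 12 higher and 6 to 8 lower carriers with siRNA 1, 12 to 14 and 8 to 10 with siRNA 2, 7 to 10 and 6 to 8 between the siRNAs, and 7 to 9 rises and 3 to 4 falls with both. Companion rises with both siRNAs ranged from 22 to 25 and falls from 10 to 11, and the log2 fold change of KMT2C from -2.98 to -2.69 with siRNA 1 and -3.02 to -2.95 with siRNA 2.

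MYC, on the list of regulators, was at 3.98, 3.62 and 18.6 FPKM in the control libraries, and without control replicate 3 its log2 values of -0.11 and -0.39 against control became 1.10 and 0.82, both called (range with 1 library left out -0.48 to 1.10 and -0.76 to 0.82); the cause was not tested. Deviations of libraries from their group means had correlations of -0.0688 to 0.0393 over 9 same-numbered pairs and -0.0832 to 0.0912 over 18 other pairs. No shared deviation of same-numbered libraries was seen, which cannot settle whether the numbers pair the samples. The replicate block ended 1 carrier call, that of SLC25A3 between the siRNAs (0.26), and changed no other carrier call. The counts, about 4 of which seem to stand for 1 fragment, limit what can be said of the 11 carriers below the filter.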
